A study of Mus musculus with 4 samples.

Results

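Dividing cancer cells were picked out of 4 single-cell RNA libraries of mouse Pan02 tumours by a rule on UMIs (unique molecular identifiers, each of which counts 1 captured RNA molecule). A cell barcode was included with at least 200 genes, at most 20% mitochondrial UMIs, at least 3000 UMIs, at least 2 UMIs of the keratins Krt8 and Krt18 together and no UMI of the leukocyte gene Ptprc. It also needed at least 5 UMIs of Top2a, Mki67, Cdk1 and Ube2c summed, so the cells were chosen by the levels of these genes. These 4 genes are topoisomerase II alpha, the proliferation antigen Ki-67, the kinase that drives entry into mitosis and an enzyme of mitotic protein degradation. The rule gave 2422 cells, of 63443 that passed the gene and mitochondrial limits and of 68102 barcodes in all. There were 849 in control, 518 with anti-PD-1, 457 with anti-LIF and 598 with combo. The 6886 cells that met every condition except the last are called the other keratin-positive cells and are the comparison group within each library.

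Pan02 is a mouse pancreatic ductal adenocarcinoma line. Per the labels it was grown under the skin of female C57BL/6 mice of 6 to 7 weeks, which entered treatment once tumours reached some 50 mm3. The control group is labelled IgG, and the others anti-PD-1, anti-LIF and anti-PD-1+anti-LIF, called combo here. PD-1 is the checkpoint receptor of T cells, and LIF is a cytokine of the interleukin-6 family. The labels name 200 µg of anti-PD-1 and 25 mg/kg of IgG or anti-LIF, 3 times a week, and do not spell out whether the anti-PD-1 group received IgG as well. Each library was made from 3 samples combined, and the animals within it cannot be told apart. A single library per group allows no test between groups. Intervals in square brackets are 95% intervals for counting error only and leave out the difference between animals. Values given 4 at a time without names run from control through anti-PD-1 and anti-LIF to combo, and those given 3 at a time leave out control.

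A dividing cell first copies its DNA in S phase, from origins licensed by the MCM helicase, and then separates the copies in mitosis with a spindle, kinetochores and condensed chromosomes. E2F factors drive many replication genes, while the DREAM and MuvB complexes act on mitotic genes through a promoter element called CHR, often beside a CCAAT box. Interferon gamma, released by T cells and NK cells, acts on cancer cells through transcription factors such as IRF1 and raises antigen presentation genes and Cd274, the gene of PD-L1, the ligand of PD-1. Many of its targets carry an interferon-stimulated response element (ISRE).

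Promoters of some genes of the groups that the results turn on are shown first. They are 90 bases from the RefSeq table of the GRCm38.p6 build, written 5′ to 3′ on the strand of the gene. Ranked genes without a match were passed over, so the genes shown were chosen for holding the motif. Windows of 300 bases, from 250 before to 50 after the start of the gene, were searched on both strands for the CHR (TTTGAA or TTCGAA), an E2F motif (TTTCGCGC, TTTGGCGC, TTTCCCGC or TTTGCCGC) and an ISRE (TTTCNNTTTC). In each set the matches of the motif it shows are in capitals, and where 2 of them overlap the capitals run through both. The Mcm7 stretch also holds the letters of a CHR, ttcgaa, left in lower case. Of the spindle and kinesin genes with a promoter in the table, 21 of 26 (80.8%) held a CHR, and of the kinetochore and checkpoint genes 14 of 20 (70%). The share was 13.8% of the 8711 promoters of genes measured in the dividing cells and 19.4% of all 27025 promoters. The E2F motif stood in 8 of 14 (57.1%) of the replication licensing promoters, against 4.47% of those of measured genes and 2.32% of all. It stood in 5 of 17 (29.4%) of the replication fork promoters and in 0 of 13 (0%) of those of nucleotide synthesis, and the CHR also stood in 6 of 14 (42.9%) of the licensing promoters, so neither motif marked 1 list alone. The ISRE stood in 8 of 18 (44.4%) of the interferon gamma and MHC class I promoters and in 8 of 14 (57.1%) of the type I interferon promoters, against 3.203% and 3.49%. A match describes the letters only and is not evidence of binding. The mitotic kinesin Kif18b, the spindle midzone protein Prc1, the cohesion factor Cdca5 (sororin) and the checkpoint protein Bub3 show the CHR.
Kif18b (chr11:102925111-102925200, minus strand): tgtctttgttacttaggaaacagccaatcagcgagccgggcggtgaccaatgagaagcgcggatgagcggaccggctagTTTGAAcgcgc
Prc1 (chr7:80294367-80294456, plus strand): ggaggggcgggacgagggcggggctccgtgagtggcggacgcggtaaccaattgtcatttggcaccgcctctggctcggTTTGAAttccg
Cdca5 (chr19:6085007-6085096, plus strand): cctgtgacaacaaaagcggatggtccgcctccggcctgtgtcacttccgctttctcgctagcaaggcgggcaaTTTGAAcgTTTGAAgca
Bub3 (chr7:131560280-131560369, plus strand): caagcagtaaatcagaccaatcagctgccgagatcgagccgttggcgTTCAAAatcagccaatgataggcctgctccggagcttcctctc
The helicase subunits Mcm6, Mcm7 and Mcm5 show the E2F motif.
Mcm6 (chr1:128359766-128359855, minus strand): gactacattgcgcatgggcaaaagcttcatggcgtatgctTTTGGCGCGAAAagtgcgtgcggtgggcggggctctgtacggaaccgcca
Mcm7 (chr5:138171999-138172088, minus strand): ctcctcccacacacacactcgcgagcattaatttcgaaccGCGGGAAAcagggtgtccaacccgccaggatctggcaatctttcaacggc
Mcm5 (chr8:75109316-75109405, plus strand): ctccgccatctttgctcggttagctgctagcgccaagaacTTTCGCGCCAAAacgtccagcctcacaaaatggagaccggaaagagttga
The T cell attracting chemokine Cxcl10, the guanylate binding protein Gbp2 and the immunity-related GTPase Igtp show the ISRE.
Cxcl10 (chr5:92349050-92349139, minus strand): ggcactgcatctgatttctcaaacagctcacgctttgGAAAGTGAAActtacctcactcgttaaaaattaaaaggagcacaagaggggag
Gbp2 (chr3:142620564-142620653, plus strand): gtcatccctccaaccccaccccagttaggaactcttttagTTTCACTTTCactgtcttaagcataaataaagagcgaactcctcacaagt
Igtp (chr11:58199466-58199555, plus strand): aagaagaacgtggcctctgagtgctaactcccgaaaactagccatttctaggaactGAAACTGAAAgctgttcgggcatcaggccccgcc

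Depth of the libraries was 15046 to 20393 barcodes and 57720774 to 111164731 UMIs. Gene levels below are CPM, the UMIs of a gene per 1000000 UMIs, both summed over the cells of a group in a library. Those sums were 16423829 UMIs in control, 11060071 with anti-PD-1, 8735842 with anti-LIF and 15488743 with combo. A dividing cell had a median of 18328 UMIs in control, 17766 with anti-PD-1, 15078 with anti-LIF and 23356.5 with combo, against 11381 in control, 9436 with anti-PD-1, 7792.5 with anti-LIF and 11541 with combo for the other keratin-positive cells, so the dividing cells were the deeper in every library. The median mitochondrial share of the dividing cells was between 11.7% and 12.6%. Between pairs of libraries 1955 barcodes were shared, and 4 of these were dividing cells in both.

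The rule fixed the presence of keratin and division genes, Rrm2 outside it was high, and most of the cells carried little RNA of the female host. The keratin levels are a description, since at least 2 UMIs of the pair were required in both groups. Krt18, the keratin of simple epithelia (chr15:102028216-102032026, GRCm38.p6), was at 915 CPM in control, 891 with anti-PD-1, 1492 with anti-LIF and 1147 with combo, and its partner Krt8 at 686, 711, 1196 and 952 CPM. In the other keratin-positive cells Krt18 was at 749, 812, 1500.3 and 1144 CPM, so the anti-LIF library was highest in both groups. Rrm2, the subunit of ribonucleotide reductase made in S phase and no part of the rule, was at 272 CPM in control, 338 with anti-PD-1, 467 with anti-LIF and 452 with combo, against 25.6, 38.6, 80.01 and 61.9 CPM in the other cells. Top2a at 551, 548, 516 and 503 CPM, Mki67 at 158, 206, 197 and 165 CPM, Cdk1 at 234, 259.6, 289 and 259 CPM and Ube2c at 295, 295, 341 and 263 CPM are, with the 2 keratins, the values that chose the cells. Xist, the RNA that silences 1 X chromosome in females, stood at 3.23 CPM in control, 3.35 with anti-PD-1, 5.15 with anti-LIF and 6.65 with combo, against 138, 119, 139 and 138 CPM in leukocytes of the same tumours (cells of at least 3000 UMIs with a Ptprc UMI and no keratin UMI). The epithelial gene Epcam was at 21.3, 4.702, 16.7 and 20.5 CPM, and the fibroblast proteoglycan Dcn at 125, 106, 83.2 and 148 CPM, against 618, 560.0, 443 and 726 CPM in the other keratin-positive cells. These genes sat in few cells: at least 1 Xist UMI, 10 Dcn UMIs or 5 Epcam UMIs were found in 77 of 849, 51 of 518, 33 of 457 and 72 of 598 dividing cells, or 9.07%, 9.85%, 7.22% and 12.04%. They are called cells with host RNA below, and values without them were added after the data were seen. In those with 10 or more Dcn UMIs Xist was at 5.14, 14.5, 47.6 and 23.0 CPM, against 3.08, 2.19, 3.01 and 4.92 CPM in the rest. In control their Xist was thus far below the leukocyte level, so the name does not settle where these cells came from. Among the other keratin-positive cells the same share was 21.2%, 19.8%, 21.6% and 33.4%.

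RNA of other cell types was low but differed between the libraries. Summed over 8 macrophage markers it was 31.2 CPM in control, 120.3 with anti-PD-1, 159 with anti-LIF and 168 with combo, with all 8 above 0 in every library and Lyz2, a lysozyme, the highest. Summed over 5 neutrophil markers it was 40.1 CPM in control, 130.4 with anti-PD-1, 11.7 with anti-LIF and 11.4 with combo, and over 7 T cell markers 22.4 CPM in control, 6.24 with anti-PD-1, 8.13 with anti-LIF and 7.36 with combo. The 6 host gland markers summed to 9.56 CPM in control, 8.05 with anti-PD-1, 59.4 with anti-LIF and 672 with combo, with Bpifa2, Smr3a and Pip at 0 outside combo. In the other keratin-positive cells they summed to 51.6, 85.2, 585 and 38770.4 CPM, so the comparison group of combo held far more RNA of host gland, led by Bpifa2 at 25276 CPM. The leukocytes also differed in make-up. Their T cell markers summed to 3757, 535, 328 and 312 CPM and their macrophage markers to 3822, 19600.1, 20718 and 21646 CPM, so each leukocyte ratio below compares unlike mixtures of cells. The 6 fibroblast markers summed to 376 CPM in control, 347 with anti-PD-1, 730.3 with anti-LIF and 699.7 with combo, with Col6a3, a collagen VI chain, the highest. At 0 in all 4 libraries were the NK cell receptor Ncr1, the B cell gene Ms4a1 and the dendritic cell genes Xcr1 and Clec9a. The remaining lists, of NK, dendritic, B and plasma, mast, endothelial, pericyte, muscle and red blood cells, summed to between 0.229 and 98.2 CPM. No UMI of 8 genes of macrophages, T cells, neutrophils and endothelium was found in 711 of 849, 223 of 518, 261 of 457 and 248 of 598 dividing cells. Most dividing cells with anti-PD-1 and combo thus carried some of this RNA, while most in control and with anti-LIF had no UMI of these genes. The part of this RNA in the differences below was not tested, except where values without the cells that carry it are given.

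The threshold of 5 UMIs cut through a continuum. Cells with 5 or 6 of these UMIs numbered 132 in control, 75 with anti-PD-1, 71 with anti-LIF and 87 with combo, and cells just outside it, with 4, numbered 101 in control, 68 with anti-PD-1, 39 with anti-LIF and 59 with combo. Rrm2 was at 144, 137, 308 and 280.1 CPM in the cells with 5 or 6, and at 68.5, 87.1, 141 and 159.8 CPM in those with 3 or 4, in the same order of libraries. The cyclin Ccnb1 was at 24.6, 32.4, 57.4 and 38.1 CPM just inside and 14.02, 21.8, 43.6 and 27.04 CPM just outside.

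Dividing cells made up a larger share of the keratin-positive cells in each treated library than in control. The share was 19.3% [18.2, 20.5] in control, 26.5% [24.6, 28.5] with anti-PD-1, 37.1% [34.4, 39.9] with anti-LIF and 34.4% [32.2, 36.7] with combo, with exact Clopper-Pearson intervals. Control was lowest, anti-PD-1 stood between, and the intervals of anti-LIF and combo overlapped each other but not those of the other 2 libraries. These intervals count cells and leave out the difference between animals. The number of keratin-positive cells went the other way, at 4388 in control, 1953 with anti-PD-1, 1231 with anti-LIF and 1736 with combo. As a share of all cells that passed the gene and mitochondrial limits, dividing cells were therefore highest in control, at 4.55%, 3.599%, 3.26% and 3.65%. A rule in UMIs finds more cells where cells are deeper, so each keratin-positive cell was also thinned to 3000 UMIs. With 5 division UMIs still required the share was 7.04% in control, 11.4% with anti-PD-1, 16.1% with anti-LIF and 11.7% with combo, and with 2 required it was 17.1% in control, 23.9% with anti-PD-1, 34.3% with anti-LIF and 27.2% with combo. Control stayed lowest and anti-LIF highest on both, while combo, whose dividing cells were the deepest, came close to anti-PD-1 on the former. Without the cells with host RNA the share was 21.7% in control, 28.9% with anti-PD-1, 41.1% with anti-LIF and 40.97% with combo.

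**Figure D1:**
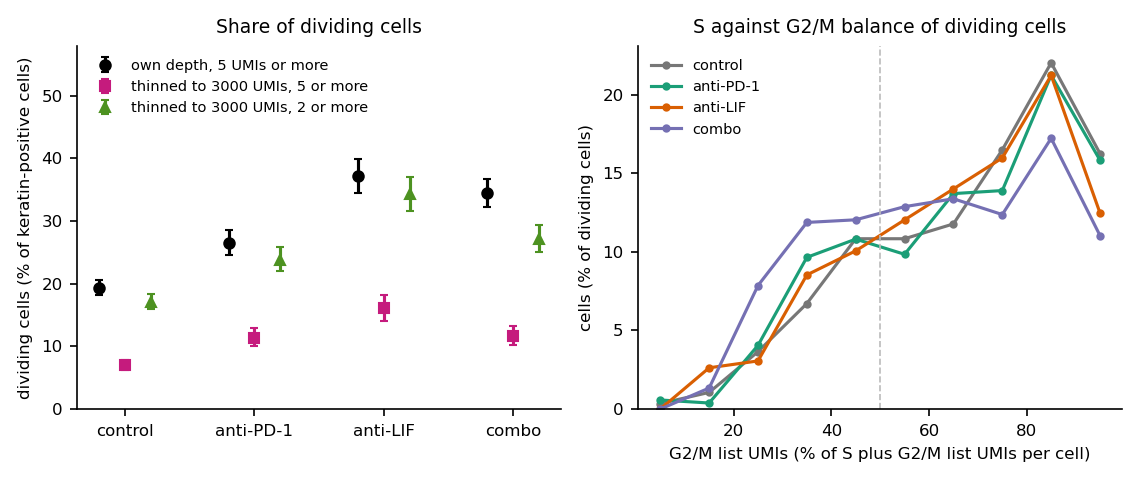
Left, dividing cells as a percentage of keratin-positive cells in each library (points, with exact 95% intervals for counting error), at each cell's own depth and after thinning to 3000 UMIs with 5 or 2 division UMIs required; control is lowest in all 3, at 19.3%, 7.04% and 17.1%. Right, percentage of dividing cells (y) by G2/M list UMIs as a percentage of S plus G2/M list UMIs per cell (x), with a dashed line at 50%; the combo line is shifted to the left, with 33.1% of cells below 50%.

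Combo cells leaned further towards S phase than those of the other libraries. For each cell, thinned to 3000 UMIs, the UMIs of 48 G2/M genes were taken as a percentage of those of the G2/M genes and 42 S phase genes, with the 4 rule genes left out of both lists. All 4 rule genes are made mainly in late S phase, G2 and mitosis, so cells in G1 or early S were selected against in every library. Thinning came after the cells were chosen at their own depth, which was greatest in combo (median 23356.5 UMIs against 18328 in control). The part of that depth in the balance was not tested. The median per cell was 72.7% in control, 70.5% with anti-PD-1, 69.6% with anti-LIF and 62.5% with combo. Cells with more S than G2/M UMIs, called S-rich, made up 22.6% [19.8, 25.6] in control, 25.5% [21.8, 29.5] with anti-PD-1, 24.3% [20.4, 28.5] with anti-LIF and 33.1% [29.3, 37.04] with combo. The combo interval lay above those of control and anti-LIF without overlap and met that of anti-PD-1 only at its edge. As counts of cells, these intervals do not show how far animals of a group differ. The class is a range on a score and not a cell type: 192, 110, 104 and 159 cells lay between 40% and 60%. Cells above 80% made up 36.3% in control, 34.4% with anti-PD-1, 32.2% with anti-LIF and 27.3% with combo, so combo also had the lowest share of cells far into G2/M. Summed over cells, mean S list UMIs were 7.101 in control, 8.47 with anti-PD-1, 9.38 with anti-LIF and 9.99 with combo per thinned cell and mean G2/M list UMIs 16.4, 18.4, 18.8 and 16.7.

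Genes of the spindle and the kinetochore stood highest in dividing over other keratin-positive cells of the same library. This contrast is the one that the rule itself made, so its values are a description. Of 12252 genes measured in it, 2.9% were 2-fold or more higher in the dividing cells in all 4 libraries and 2.07% were 2-fold or more lower. Among 30 spindle and kinesin genes 29 were 2-fold higher in all 4, with a median log2 ratio of 3.79, 3.44, 2.65 and 3.22. Among 23 kinetochore and checkpoint genes 22 were, with medians of 3.55, 3.25, 2.41 and 3.11. The medians were smallest in anti-LIF, where the other keratin-positive cells held more RNA of these genes: their own median against control was 1.46 for the spindle list. These cells were also the shallowest, at a median of 7792.5 UMIs against 11381 in control. A fixed threshold of 5 UMIs can leave more cells in cycle among them, and the part of depth was not tested. Replication licensing genes (14 of 19, medians 1.99, 1.88, 1.32 and 1.92) and replication fork genes (12 of 20, medians 1.76, 1.58, 1.28 and 1.67) stood lower, as did 14 of 18 repair genes and 12 of 16 condensin and cohesin genes by count.

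Aurkb, the kinase of the chromosomal passenger complex, had the highest ratio when genes were ranked by their lowest library, at 85.7 CPM in control, 84.4 with anti-PD-1, 91.8 with anti-LIF and 99.9 with combo in the dividing cells against 1.94, 1.87, 4.07 and 3.101 CPM in the others. Its log2 ratios were 5.46, 5.48, 4.47 and 5.00. Nusap1, which binds spindle microtubules, was at 66.7, 68.4, 56.5 and 56.3 CPM against 1.23, 1.63, 2.93 and 1.52 CPM. For both, the other keratin-positive cells held the most with anti-LIF. The cohesin acetyltransferase Esco2 was at 8.22, 8.86, 9.39 and 10.3 CPM against 0.183, 0.233, 0.509 and 0.1898 CPM, and the DNA glycosylase Neil3 at 11.5, 13.6, 9.84 and 12.3 CPM against 0.183, 0.408, 0.636 and 0.506 CPM. Plk1, the polo kinase of mitosis, was at 50.7, 67.6, 83.3 and 61.7 CPM against 2.76, 4.31, 7.89 and 3.29 CPM, with ratios of 4.19, 3.96, 3.39 and 4.21. Prc1 had nearly the same ratio in each library, at 3.78, 3.59, 3.59 and 3.81, and Kif18b stood at 4.85, 4.57, 3.61 and 4.25. Depdc1b, Ttk, Cdca2, Pbk, Arhgef39, Sapcd2, Spc25 and Cdca5 completed the 15 highest, with log2 ratios between 3.40 and 6.13. The lowest were led by Gdpd2, a phosphodiesterase of glycerophospholipids, at 4.02 CPM in control, 2.53 with anti-PD-1, 0.916 with anti-LIF and 2.195 with combo against 34.4, 18.2, 18.1 and 25.7 CPM. Plet1, a surface protein of progenitor epithelia, was at 2.31, 0.633, 6.52 and 4.07 CPM against 12.8, 8.04, 67.2 and 29.5 CPM, and Hsd11b1, which activates glucocorticoids, at 15.4, 20.3, 1.37 and 2.91 CPM against 100.3, 93.3, 19.97 and 15.6 CPM. Dcn and Lum, proteoglycans made by fibroblasts, were also among these 10, with ratios of -2.31, -2.40, -2.41 and -2.30 and -2.29, -2.38, -2.67 and -2.20, next to the host RNA shares above. Mmp13, Itga11, Aox3, Grpr and Serpini1 had fewer than 10 CPM in either group of every library.

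**Figure D2:**
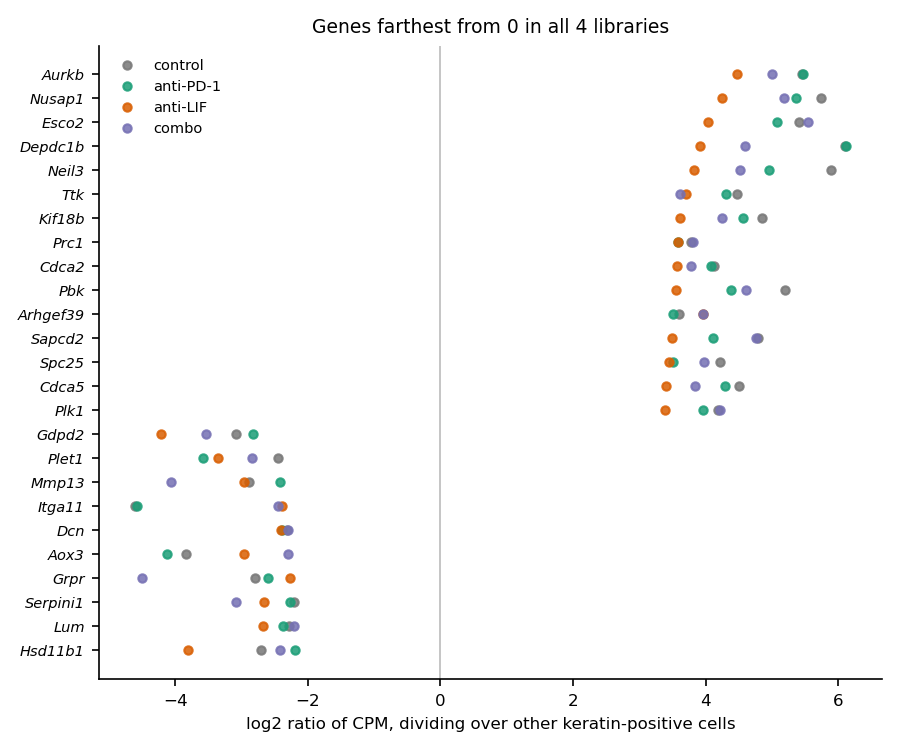
Log2 ratio of CPM, dividing over other keratin-positive cells (x), for the 15 genes with the highest and the 10 with the lowest ratio when ranked by their least extreme library; each point is 1 library and the line marks 0. Aurkb lies at 5.46, 5.48, 4.47 and 5.00, and all 25 genes keep their side of 0 in the 4 libraries because they were chosen to.

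Genes outside the S and G2/M score lists split the dividing cells the same way in all 4 libraries. Over 14 spindle and kinesin genes not used for the score, the G2/M-rich cells were higher than the S-rich cells in all 4 libraries for 13, and over 12 kinetochore genes for 9. Of 11 licensing genes 10 were lower, as were 12 of 13 replication fork genes and 11 of 11 nucleotide synthesis genes. The medians of all genes were between -0.04 and -0.02. In control, Plk1 was at 11.5 CPM in S-rich and 63.8 CPM in G2/M-rich cells, and the kinesin Kif20a at 22.7 and 106. Going the other way, the helicase subunit Mcm3 was at 252 and 79.7 CPM. Ribosome biogenesis genes, which were higher in dividing than in other keratin-positive cells for 19 of 20 in all 4 libraries (medians 0.52, 0.53, 0.51 and 0.67), were lower in the G2/M-rich cells for 14 of 20.

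Each treated library was compared with control over the genes with at least 30 UMIs in either, and all 3 comparisons use the same control. All these genes together had a median log2 ratio of 0.14 with anti-PD-1, 0.17 with anti-LIF and 0.16 with combo, so a list with a median near those values stood with genes at large. For anti-PD-1, 4.12% of 10640 genes were 2-fold or more higher and 2.35% lower. For anti-LIF, 6.51% of 10612 were higher and 4.72% lower. For combo, 6.11% of 10974 were higher and 3.2% lower. Against these shares, 1, 4 and 5 of the 42 S phase score genes and none of the 48 G2/M score genes were 2-fold or more higher, and 22 of 22 interferon gamma and MHC class I genes were 2-fold or more lower in both anti-LIF and combo.

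**Figure D3:**
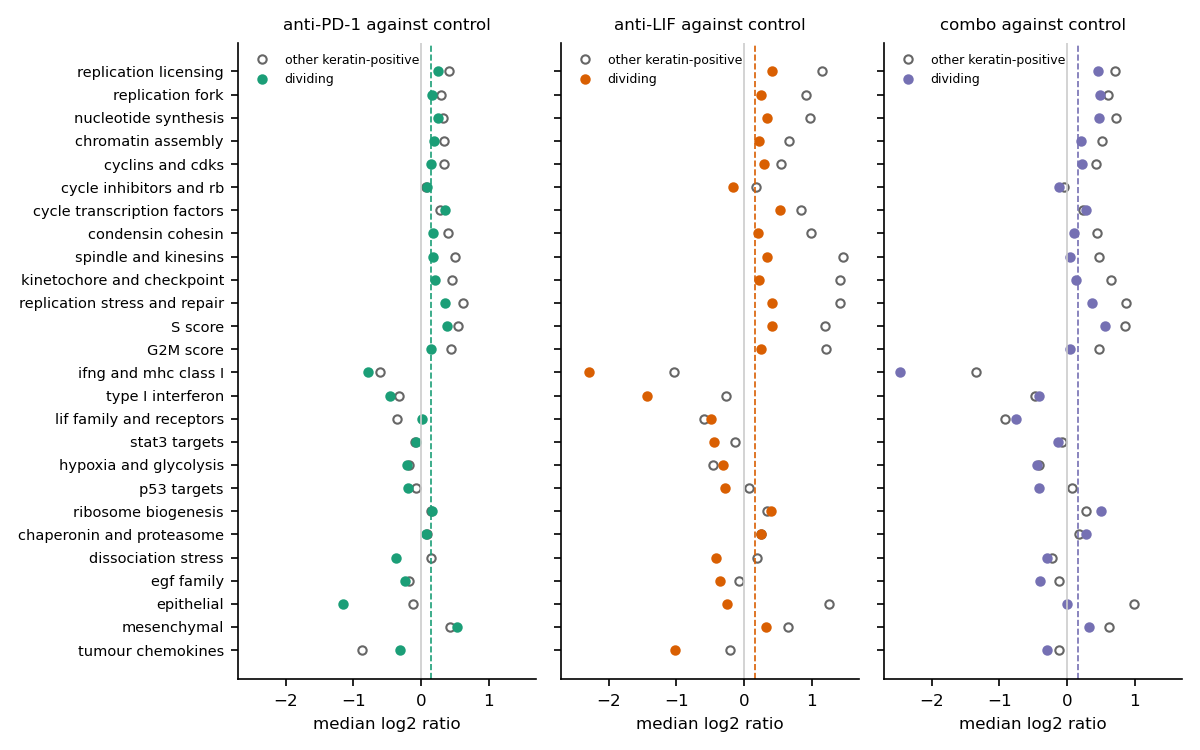
Median log2 ratio against control (x) of each gene list (y) in dividing cells (filled points) and in other keratin-positive cells (open points), 1 panel per treated library; the dashed line is the median of all genes in dividing cells. The interferon gamma and MHC class I list lies at -0.79, -2.30 and -2.47 in dividing cells, left of every other list plotted in each of the anti-LIF and combo panels.

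S phase score genes were higher than in control in each treated library, and by most in combo. All 42 S phase score genes were above 0 with anti-PD-1 and combo and 40 of 42 with anti-LIF, with medians of 0.38 with anti-PD-1, 0.42 with anti-LIF and 0.57 with combo. The share of all genes above 0 was 69.2%, 66.5% and 66.4%. Among 19 licensing genes 16, 18 and 19 were above 0, with medians of 0.25, 0.41 and 0.47. Among 20 replication fork genes 17, 18 and 19 were, with medians of 0.15, 0.25 and 0.49, so with anti-PD-1 the fork list stood with genes at large (0.14). Mcm2, a subunit of the replicative helicase, was at 53.5 CPM in control, 77.7 with anti-PD-1, 90.3 with anti-LIF and 105 with combo (log2 ratio 0.97 [0.85, 1.09] for combo). Cdc6, which loads that helicase, was at 15.6, 25.9, 22.1 and 31.5 CPM (1.01 [0.79, 1.24] for combo), the only licensing gene past 2-fold, and Gins3, part of the active helicase, at 4.32, 5.15, 8.24 and 7.94 CPM. Cdt1, the other loading factor, was at 51.4, 48.6, 47.05 and 59.8 CPM and Orc1, of the origin recognition complex, at 8.59, 8.32, 8.81 and 9.04 CPM, so neither stood apart in the treated libraries. At the fork, Fen1, which trims Okazaki fragments, was at 35.01 CPM in control, 45.8 with anti-PD-1, 58.6 with anti-LIF and 66.8 with combo, and the polymerase subunit Pold2 at 3.77, 9.49, 14.1 and 18.6 CPM (2.29 [1.90, 2.72] for combo). Its partner Pold1 was at 3.77, 13.1, 14.8 and 10.7 CPM, while the leading strand polymerase Pole was at 25.8, 22.9, 21.5 and 27.5 CPM. In leukocytes Pold1 was also higher, by 1.08 on the log2 scale with anti-PD-1, 1.01 with anti-LIF and 0.09 with combo.

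Nucleotide synthesis genes had medians of 0.24, 0.33 and 0.47, with Rrm2 as given above, Gart of purine synthesis at 25.1 CPM in control, 34.2 with anti-PD-1, 47.2 with anti-LIF and 47.1 with combo and Cad of pyrimidine synthesis at 39.8, 55.97, 71.2 and 65.9 CPM. Dut, which destroys dUTP, went the other way, at 351, 299, 324 and 308 CPM. Repair genes had medians of 0.36, 0.42 and 0.37, highest with anti-LIF. The exonuclease Exo1 was at 10.4 CPM in control, 17.99 with anti-PD-1, 23.2 with anti-LIF and 23.95 with combo (1.20 [0.94, 1.47] for combo), while in leukocytes the same ratio was -1.77. Fbxo5 (Emi1), which holds back mitotic degradation, was at 8.46, 17.3, 22.7 and 19.9 CPM, or 2-fold or more higher in each treated library, and in leukocytes its log2 ratios were -1.58, -1.35 and -2.08, beside the lower T cell and higher macrophage marker sums of the treated leukocytes. The S phase cyclin Ccne2 was at 3.53 CPM in control, 9.04 with anti-PD-1, 10.3 with anti-LIF and 10.6 with combo (1.35 [0.88, 1.85], 1.54 [1.05, 2.05] and 1.58 [1.14, 2.04]). It was the member farthest above 0 among 19 cyclins and kinases in each comparison, and its leukocyte ratios were 0.05, -0.22 and -0.73. Ccnd1, the cyclin of G1, was at 373, 513, 571 and 510.4 CPM, and the phosphatase Cdc25c, which starts mitosis, at 11.8, 11.6, 10.5 and 8.33 CPM.

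The G2/M score and spindle lists lay close to genes at large with anti-PD-1, above them with anti-LIF and below them in combo. The kinetochore list had a median near that of genes at large in each treated library. The G2/M score list had medians of 0.15 with anti-PD-1, 0.24 with anti-LIF and 0.04 with combo, with 35, 42 and 27 of 48 genes above 0. Spindle and kinesin genes had 0.17, 0.34 and 0.05 and kinetochore genes 0.20, 0.22 and 0.13, beside 0.14, 0.17 and 0.16 for all genes. With anti-LIF the counting interval averaged over the middle genes of the spindle list was [0.19, 0.48]. It leaves out the spread over the list, from -0.32 to 1.74. In that library 24 of 30 spindle and 22 of 23 kinetochore genes were above 0, against 66.5% of all genes. Once ratios were centred on the median of all genes, the combo medians of the spindle, kinetochore and condensin lists were -0.11, -0.03 and -0.05, so their direction in combo depends on the scaling. Aurka, the spindle pole kinase, was at 30.6 CPM in control, 40.8 with anti-PD-1, 50.7 with anti-LIF and 29.9 with combo, and the midzone protein Prc1 at 176, 173, 175 and 149 CPM. Kif22, a kinesin of chromosome arms, was at 19.1, 44.8, 63.9 and 17.9 CPM and was the spindle gene farthest above 0 in anti-PD-1 (1.23 [1.02, 1.44]) and anti-LIF (1.74 [1.54, 1.94]). The other keratin-positive cells gave 1.82 and 2.72 for it, and leukocytes 0.60 and 1.07. The proportion of S-rich cells differed between the libraries, so lists were also read within each class. Within S-rich cells alone the licensing medians were 0.18, 0.27 and 0.33, and within G2/M-rich cells 0.26, 0.47 and 0.46.

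Among 13 cycle transcription factors 12, 12 and 11 were above 0, against 69.2%, 66.5% and 66.4% of all genes. E2f2, an activating E2F, was at 4.26 CPM in control, 4.43 with anti-PD-1, 8.36 with anti-LIF and 9.81 with combo, and E2f7, a repressing one, at 4.99, 8.95, 10.5 and 8.65 CPM. Myc was the lowest member in all 3 comparisons, at 470.5 CPM in control, 411 with anti-PD-1, 191 with anti-LIF and 189.7 with combo, with log2 ratios of -0.19 [-0.25, -0.14], -1.30 [-1.37, -1.22] and -1.31 [-1.37, -1.25]. Both libraries with anti-LIF were past 2-fold lower, and the other keratin-positive cells were also lowest in these libraries, at 500.3, 468, 240 and 263 CPM. In leukocytes the Myc ratio was -0.20 in anti-LIF and 0.17 in combo. Among the inhibitors of the cycle, Cdkn1a (p21) was at 220.0 CPM in control, 116 with anti-PD-1, 156 with anti-LIF and 117 with combo, lowest in anti-PD-1 and combo. The stress gene Gadd45a was at 290.1, 222, 114 and 117 CPM, lowest in the libraries with anti-LIF, and Cdkn1b (p27) at 90.7, 83.00, 69.5 and 68.95 CPM. Ribosome biogenesis genes, many of them known Myc targets, were above 0 for 16, 19 and 20 of 20, against 69.2%, 66.5% and 66.4% of all genes. Their medians were 0.16, 0.40 and 0.51, beside 0.14, 0.17 and 0.16 for all genes. With anti-PD-1 this list thus stood with genes at large. Nucleolin Ncl was at 1119 CPM in control, 1248 with anti-PD-1, 1292 with anti-LIF and 1585 with combo, the RNA polymerase I subunit Polr1b at 7.37, 11.8, 13.7 and 13.4 CPM, and the pseudouridine synthase Dkc1 at 50.1, 54.5, 75.8 and 76.1 CPM.

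Interferon gamma and MHC class I genes were lower in the dividing cells of every treated library, and much lower where anti-LIF had been given. All 22 genes were below 0 in all 3 comparisons. The medians were -0.79 with anti-PD-1, -2.30 with anti-LIF and -2.47 with combo. Of the 22 genes 4, 22 and 22 were 2-fold or more lower, against 2.35%, 4.72% and 3.2% of all genes. In the other keratin-positive cells the medians were -0.60, -1.03 and -1.34. Gbp2 was at 1190.0 CPM in control, 514 with anti-PD-1, 134 with anti-LIF and 111 with combo, and Igtp at 374, 193, 42.2 and 33.3 CPM. Their log2 ratios for anti-LIF were -3.15 [-3.24, -3.07] and -3.14 [-3.30, -2.99]. The transcription factor Irf1 was at 569 CPM in control, 311 with anti-PD-1, 133 with anti-LIF and 122 with combo. In each of these genes anti-PD-1 lay between control and the libraries with anti-LIF, which were close to each other.

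Antigen presentation followed the same order. Beta-2 microglobulin B2m, the light chain of MHC class I, was at 5979 CPM in control, 3929 with anti-PD-1, 1881 with anti-LIF and 1585 with combo, and the heavy chain H2-K1 at 3569, 1872, 679.6 and 667 CPM. The peptide transporter Tap1 was at 229, 115, 35.5 and 36.3 CPM, and the immunoproteasome subunit Psmb9 at 106, 54.97, 13.9 and 12.5 CPM (log2 ratio -3.08 [-3.31, -2.87] for combo). Cxcl10, which draws T cells, was at 843 CPM in control, 245 with anti-PD-1, 62.04 with anti-LIF and 181 with combo, and without the cells with host RNA at 877, 250.4, 63.8 and 78.1 CPM. The lower level of these genes thus held for the transporter, the immunoproteasome subunit and the chemokine alike. Cd274 (chr19:29362107-29388095, GRCm38.p6) was at 85.2 CPM in control, 36.1 with anti-PD-1, 7.33 with anti-LIF and 6.13 with combo, with log2 ratios of -1.24 [-1.40, -1.08], -3.53 [-3.92, -3.18] and -3.79 [-4.11, -3.50]. Thinned to 3000 UMIs, the share of dividing cells with a Cd274 UMI was 15.3% in control, 7.72% with anti-PD-1, 1.75% with anti-LIF and 2.01% with combo. The share of leukocytes, whose median depth was 4710, 5272, 5106 and 5866 UMIs, was 22.2%, 14.9%, 14.1% and 14.1%. The level of PD-L1 RNA was thus lowest in the dividing cells of the libraries with anti-LIF, while leukocytes differed by less between the libraries. The members least below 0 were Psmb8 in anti-PD-1 (-0.20 [-0.27, -0.14]), Psmb10 in anti-LIF (-1.48 [-1.65, -1.32]) and Tapbp in combo (-1.38 [-1.44, -1.32]).

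**Figure D4:**
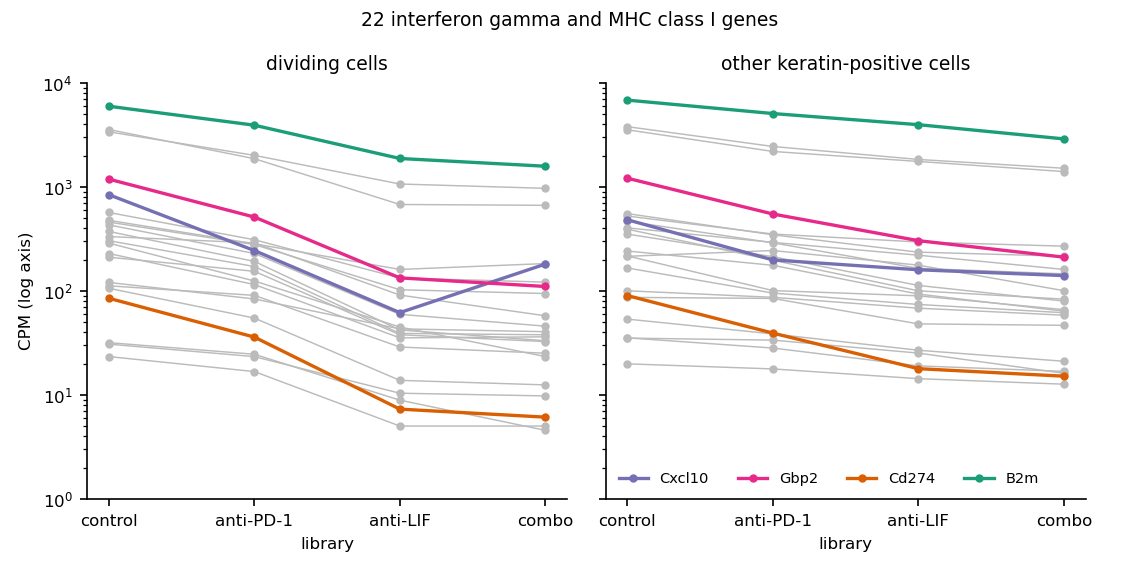
CPM (log axis) of 22 interferon gamma and MHC class I genes (1 line per gene, of which Cd274, Cxcl10, B2m and Gbp2 are in colour) in the 4 libraries, in dividing cells (left) and other keratin-positive cells (right). In dividing cells Cd274 goes from 85.2 in control to 36.1, 7.33 and 6.13, and Cxcl10 is the coloured gene that is higher in combo (181) than in anti-LIF (62.0).

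Within the control and anti-PD-1 libraries dividing and other keratin-positive cells had like levels of this list, and with anti-LIF the dividing cells were lower. The median log2 ratio of dividing over other cells was 0.02, -0.09, -1.07 and -0.85 from control to combo, beside -0.03, -0.06, -0.09 and -0.04 for all genes. It lies in the contrast of the rule and is a description. Without the cells with host RNA in either group the medians were 0.04, -0.09, -0.76 and -0.89, with 9, 15, 22 and 22 of 22 genes below 0. B2m was at 5979, 3929, 1881 and 1585 CPM in dividing against 6844, 5087, 3975 and 2902 CPM in other cells. It was thus lower in dividing cells of all 4 libraries, and by more in those with anti-LIF. Per cell, thinned to 3000 UMIs and leaving out B2m, H2-K1 and H2-D1, the list had a median number of UMIs of 15 in control, 6 with anti-PD-1, 1 with anti-LIF and 1 with combo in dividing cells, and of 13, 7, 3 and 3 in the others. The share of dividing cells above the control median was 49.00% in control, 22.2% with anti-PD-1, 4.81% with anti-LIF and 2.84% with combo. The lower level was thus spread over most of the cells of the libraries with anti-LIF.

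MHC class II genes, which present peptides to CD4 T cells and which interferon gamma can switch on in non-immune cells, were also lower. These 7 genes were grouped after their values were seen. Their medians were -1.25 with anti-PD-1, -3.42 with anti-LIF and -3.74 with combo, against -1.15, -2.30 and -2.33 in the other keratin-positive cells. H2-Aa, an alpha chain, was at 1060.2 CPM in control, 402 with anti-PD-1, 98.8 with anti-LIF and 73.5 with combo, and H2-Eb1, a beta chain, at 814, 314, 67.2 and 54.5 CPM. Ciita, the factor that turns these genes on, had 172, 72, 5 and 15 UMIs in all dividing cells together. H2-DMa, which helps load the peptide, was at 34.5, 34.9, 5.04 and 2.58 CPM and was the member with like levels in control and anti-PD-1. Thinned to 3000 UMIs, the share of dividing cells with an H2-Aa UMI was 76.2% in control, 42.7% with anti-PD-1, 14.9% with anti-LIF and 14.5% with combo, and that of leukocytes 43.2%, 71.9%, 77.2% and 77.01%. Control was thus the highest library in dividing cells and the lowest in leukocytes, whose macrophage marker sum was also lowest in control. The log2 ratio of H2-Aa in leukocytes of combo was 0.83.

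Type I interferon response genes were lower in anti-LIF, and in combo the value rested on few cells. Over 18 measured genes the medians were -0.46 with anti-PD-1, -1.44 with anti-LIF and -0.41 with combo. In anti-LIF 17 of 18 were below 0 and 11 were 2-fold or more lower, against 33.5% and 4.72% of all genes. The antiviral gene Ifit3 was at 20.6 CPM in control, 11.6 with anti-PD-1, 2.63 with anti-LIF and 16.5 with combo, and Rsad2 (viperin) at 20.5, 10.1, 3.21 and 25.7 CPM. In combo, 1 cell with 72220 UMIs, 95 of them Epcam and 4 Xist, held 1338 of the 6151 UMIs of the list (21.8%), 67.5% of Ifit3 and 58.5% of Rsad2. Without the cells with host RNA Ifit3 was at 21.4, 11.9, 1.89 and 4.17 CPM and the combo median at -1.34. Zbp1, a sensor of nucleic acids, was spread more evenly, at 82.1 CPM in control, 32.2 with anti-PD-1, 13.97 with anti-LIF and 15.8 with combo, and Bst2 (tetherin) at 264, 166, 84.6 and 103 CPM. In the other keratin-positive cells the medians were -0.33, -0.27 and -0.47. Set against the dividing cells of the same library, the median was far nearer to 0 with anti-LIF and slightly nearer with anti-PD-1. With combo it was slightly farther from 0 than the -0.41 of all dividing cells, a value that rested on few cells.

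Prl2c2, which encodes the placental prolactin family hormone proliferin (chr13:12996120-13005393, GRCm38.p6), was far higher in the libraries with anti-LIF. It was at 21.7 CPM in control, 67.2 with anti-PD-1, 716 with anti-LIF and 428 with combo, with log2 ratios of 1.63 [1.45, 1.82], 5.04 [4.89, 5.20] and 4.30 [4.15, 4.46]. The neighbouring Prl2c3 (chr13:12790816-12800093) was at 3.11 CPM in control, 16.2 with anti-PD-1, 519 with anti-LIF and 128 with combo. The spliced transcripts of the pair are 99.5% identical, and 98.3% over the last 300 bases, in the GENCODE M21 transcripts. Reads of the 3′ end can therefore have been split between them, and which of the pair was made is uncertain. Prl2c5, at 95.7% identity to Prl2c2, was at 0.122, 0.0904, 1.83 and 0.581 CPM, and Prl3b1 and Prl3d1 were at 0 in all 4 libraries. In the other keratin-positive cells Prl2c2 was at 14.2 CPM in control, 10.5 with anti-PD-1, 251 with anti-LIF and 116 with combo, so it was higher in dividing cells of all 4 libraries.

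The Prl2c2 RNA was in many cells with anti-LIF and in few without. Thinned to 3000 UMIs, the share of dividing cells with a Prl2c2 UMI was 3.42% in control, 6.56% with anti-PD-1, 46.4% with anti-LIF and 30.8% with combo. The share was 1.24%, 2.09%, 21.4% and 11.5% in the other keratin-positive cells and at most 0.788% in leukocytes. At their own depth, the dividing cells with 10 or more of its UMIs numbered 6 in control, 21 with anti-PD-1, 137 with anti-LIF and 140 with combo, and the 10 top cells held 49.4%, 63.3%, 22.1% and 26.6% of its UMIs. Anti-PD-1 thus rested on few cells, and the libraries with anti-LIF on many. In anti-LIF the share was 43.2% [33.9, 52.98] of S-rich and 47.4% [42.03, 52.8] of G2/M-rich cells, with overlapping intervals. In combo it was 37.4% [30.6, 44.5] and 27.5% [23.2, 32.2], where the intervals of the 2 classes met only near their edges. Such an overlap does not show that the classes were alike. Without the cells with host RNA Prl2c2 was at 22.1, 64.7, 735 and 447 CPM. The rank correlation of Prl2c2 with the interferon gamma list across thinned cells was -0.07 in control (849 cells), -0.27 with anti-PD-1 (518), -0.36 with anti-LIF (457) and -0.26 with combo (598). It is given as a description, since the cells share a library and the 2 quantities share a fixed number of UMIs.

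Rhox5, a homeobox gene of the reproductive cluster on the X chromosome (chrX:37754608-37808878, GRCm38.p6), was nearly missing from the anti-LIF library alone. It was at 32.4 CPM in control, 25.7 with anti-PD-1, 0.343 with anti-LIF and 56.7 with combo, which is 532, 284, 3 and 878 UMIs. A UMI was found in 58 of 849, 37 of 518, 3 of 457 and 59 of 598 dividing cells, and the 10 top cells held 46.8%, 59.9%, 100% and 32.2% of the UMIs. A minority of cells thus made it in each library. Thinned to 3000 UMIs the share of cells with a Rhox5 UMI was 5.42% in control, 4.63% with anti-PD-1, 0% with anti-LIF and 8.03% with combo, where 0 of 457 cells allows a share of cells with a UMI of up to 0.656% by a limit of 3 cells, or 0.804% by the exact interval. In leukocytes it was at most 0.570%. The log2 ratio was -6.34 [-8.84, -5.00] for anti-LIF against control and 7.15 [5.82, 9.65] for combo against anti-LIF. The other keratin-positive cells held it at 21.6 CPM in control, 16.9 with anti-PD-1, 4.33 with anti-LIF and 47.3 with combo, with the same library lowest. Whether this belongs to the treatment or to the 3 samples combined cannot be told apart with 1 library.

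**Figure D5:**
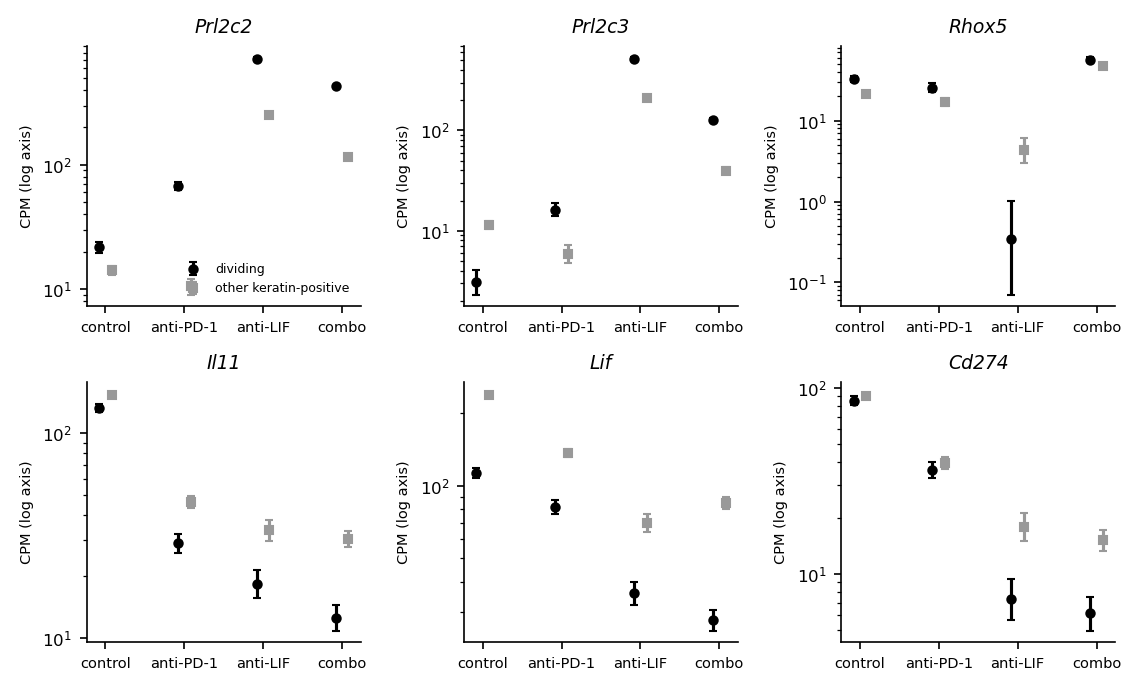
CPM (log axis) of Prl2c2, Prl2c3, Rhox5, Il11, Lif and Cd274 in the 4 libraries, in dividing cells (circles) and other keratin-positive cells (squares), with exact Poisson 95% intervals for counting error. Prl2c2 and Prl2c3 are highest and Il11, Lif and Cd274 lowest in the libraries with anti-LIF, while Rhox5 drops to 0.343 CPM in anti-LIF only.

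Lif and the related cytokine Il11 were lower in dividing cells of the treated libraries. Lif (chr11:4257568-4272514) was at 112 CPM in control, 81.4 with anti-PD-1, 35.8 with anti-LIF and 27.7 with combo, with log2 ratios of -0.47 [-0.58, -0.35], -1.65 [-1.83, -1.48] and -2.02 [-2.18, -1.87]. The other keratin-positive cells held more of it in each library, at 236, 136, 69.8 and 84.7 CPM. Il11 (chr7:4772373-4782907) was at 133 CPM in control, 29.02 with anti-PD-1, 18.4 with anti-LIF and 12.6 with combo (-2.19 [-2.37, -2.02], -2.84 [-3.09, -2.62] and -3.39 [-3.62, -3.19]). Il6 was at 23.1, 12.5, 2.06 and 11.6 CPM and, without the cells with host RNA, at 17.9, 2.39, 1.26 and 1.29 CPM. Clcf1, another ligand of the family, was at 61.8, 53.5, 43.96 and 36.7 CPM. Of the receptors, the LIF receptor Lifr was at 1.46, 2.62, 0.801 and 0.968 CPM, with fewer than 30 UMIs in every library, while the shared signal chain Il6st (gp130) was at 80.1, 101, 96.6 and 85.4 CPM and stood near the genes at large. Osmr, the oncostatin M receptor, was at 13.8, 13.9, 8.81 and 8.01 CPM.

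Targets of STAT3, the factor that acts downstream of LIF, were on both sides of 0, with medians below those of genes at large. The 21 genes had medians of -0.08 with anti-PD-1, -0.44 with anti-LIF and -0.13 with combo, beside 0.14, 0.17 and 0.16 for all genes. Of the 21, 11, 14 and 11 were below 0, against 30.8%, 33.5% and 33.6% of all genes. The kinase Pim1 was farthest below, at 306 CPM in control, 140.1 with anti-PD-1, 88.6 with anti-LIF and 123 with combo, with log2 ratios of -1.13 [-1.21, -1.04], -1.79 [-1.90, -1.68] and -1.31 [-1.39, -1.24]. Socs3, the feedback inhibitor of the pathway, was at 355 CPM in control, 279 with anti-PD-1, 163 with anti-LIF and 204 with combo, Junb at 762, 473, 269 and 439 CPM and Stat3 itself at 137, 123, 91.5 and 87.3 CPM. Pim1, Socs3 and Junb were lowest in anti-LIF and Stat3 in combo. Ccnd1 and Timp1, which inhibits metalloproteinases, went the other way, with log2 ratios of 0.46, 0.61 and 0.45 and 0.18, 0.61 and 0.44. Lcn2 (lipocalin 2) was the member farthest above 0 in each comparison, at 1.77, 5.88, 6.52 and 27.6 CPM, of which the single combo cell described above held 83.2%. Without the cells with host RNA it was at 0.343, 6.03, 0.503 and 1.06 CPM.

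Cxcl2 and Cxcl5, chemokines that draw neutrophils, were lower in each treated library. Cxcl2 was at 649 CPM in control, 127 with anti-PD-1, 110.2 with anti-LIF and 153 with combo, with log2 ratios of -2.36 [-2.44, -2.28], -2.56 [-2.65, -2.46] and -2.09 [-2.15, -2.02]. Cxcl5 was at 75.7, 33.4, 14.4 and 28.9 CPM, while the related Cxcl1 was at 99.6, 95.2, 35.5 and 90.3 CPM and Cxcl3 at 63.02, 33.7, 21.5 and 51.6 CPM, both lowest with anti-LIF. In leukocytes of anti-PD-1 Cxcl2 was higher than in control, with a log2 ratio of 1.22. The monocyte chemokines Ccl2 and Ccl7 were at 17.96, 71.5, 55.5 and 50.7 CPM and 6.33, 47.4, 24.4 and 31.6 CPM, and without the cells with host RNA at 12.5, 12.1, 39.97 and 12.4 CPM and 3.63, 7.28, 16.3 and 11.3 CPM, so their height in anti-PD-1 rested mostly on those cells. Il33, an alarmin, was at 45.7 CPM in control, 59.9 with anti-PD-1, 98.2 with anti-LIF and 94.8 with combo. The EGF receptor ligand Ereg was at 102, 49.1, 31.1 and 27.6 CPM, and Areg at 111, 37.3, 77.6 and 70.8 CPM, lowest in anti-PD-1. Over 13 measured chemokines and colony factors the medians were -0.32, -1.03 and -0.29. Of these genes 3, 3 and 5 were 2-fold or more higher, against 4.12%, 6.51% and 6.11% of all genes. The number 2-fold or more lower was 3, 7 and 3, against 2.35%, 4.72% and 3.2% of all genes.

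Of the remaining lists, hypoxia and glycolysis had medians of -0.21, -0.31 and -0.44. Hk2, the hexokinase induced by low oxygen, was at 108 CPM in control, 61.4 with anti-PD-1, 30.7 with anti-LIF and 38.03 with combo, and Vegfa, the angiogenic factor, at 531, 395, 281 and 214 CPM, while Eno1 (enolase) was at 128, 207, 257 and 165 CPM. The list thus had members on both sides of 0. p53 targets had -0.20, -0.29 and -0.42, with Phlda3 at 31.2, 57.1, 65.2 and 44.9 CPM and Sesn2 at 9.19, 4.43, 5.49 and 4.78 CPM. Genes that respond to tissue dissociation had -0.37, -0.42 and -0.30, with Atf3 at 575, 255, 260.4 and 260.1 CPM and Hspa1b at 267, 116, 214 and 194 CPM. In dividing over other keratin-positive cells this stress list had medians of -0.38, -0.61, -0.85 and -0.71. Chaperonin and proteasome genes had 0.08, 0.24 and 0.29. Epithelial genes had -1.16, -0.25 and -0.0032, with 6 of 11 measured genes 2-fold or more lower with anti-PD-1, against 2.35% of all genes. Without the cells with host RNA the anti-PD-1 median was -0.49. Krt7, a keratin of ducts, was at 169 CPM in control, 63.5 with anti-PD-1, 93.5 with anti-LIF and 133 with combo, the adhesion protein Cdh1 at 33.3, 13.7, 23.7 and 27.7 CPM and the tight junction gene Ocln at 1.83, 2.17, 8.47 and 6.13 CPM. Mesenchymal genes had 0.53, 0.33 and 0.33, where Col3a1 was at 94.1, 679, 589 and 724 CPM and Postn at 4.69, 58.5, 155 and 109 CPM. Both are matrix genes of fibroblasts, and without the cells with host RNA Col3a1 was at 45.04, 74.9, 136 and 128 CPM and Postn at 0.823, 2.29, 23.00 and 10.9 CPM. The medians of the list were then 0.41, -0.02 and -0.08. Those cells were left out partly by their Dcn and Epcam, so epithelial and mesenchymal values without them are a description.

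Against control, the 8 highest genes with anti-PD-1 were C1qb, Dpysl3, Men1, Lyz2, Apoe, Col7a1, Cct7 and Ppp1ca. C1qb, Lyz2 and Apoe are macrophage genes, at 5.297, 28.9, 28.4 and 36.7 CPM, 12.7, 51.5, 80.5 and 81.9 CPM and 12.7, 51.2, 42.8 and 57.8 CPM. Their log2 ratios of 2.44 [2.10, 2.81], 2.02 [1.79, 2.26] and 2.01 [1.78, 2.25] stood beside 2.22, 2.46 and 2.00 in leukocytes and the macrophage marker sums given above. Men1 (menin), Cct7 of the chaperonin ring and Ppp1ca, a phosphatase subunit, were at 8.402, 37.3, 50.8 and 16.2 CPM, 59.5, 216, 324 and 78.5 CPM and 54.2, 191, 293 and 91.7 CPM. These 3 were higher in anti-PD-1 and anti-LIF than in control and combo, and the leukocyte ratios for anti-PD-1 were 1.95, 1.49 and 1.55. Collagen VII, Col7a1, had the same order, at 6.15, 23.1, 35.6 and 13.2 CPM. Dpysl3, a cytoskeletal regulator, was at 8.65 CPM in control, 41.8 with anti-PD-1, 70.3 with anti-LIF and 20.9 with combo, and in leukocytes of anti-PD-1 it was lower, at -0.87.

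The 8 lowest genes of anti-PD-1 were Cxcl2, Ly6c1, Il1rn, Il11, Gda, Ly6a, Cxcl10 and C3. Ly6a (Sca-1), a surface protein that interferons raise, was at 1666 CPM in control, 437 with anti-PD-1, 224 with anti-LIF and 393 with combo, with log2 ratios of -1.93, -2.89 and -2.08. Ly6c1, a related protein, was at 226, 46.2, 27.6 and 81.9 CPM. Il1rn, the interleukin-1 receptor antagonist, was at 29.1, 6.15, 8.24 and 6.13 CPM, and complement C3 at 124 CPM in control, 38.3 with anti-PD-1, 40.3 with anti-LIF and 97.1 with combo. Gda, guanine deaminase, was at 34.8, 8.95, 12.2 and 17.5 CPM. In leukocytes of anti-PD-1 Gda and Il1rn were higher than in control, by 2.35 and 1.99 on the log2 scale, beside neutrophil marker sums of 6557 CPM against 186 CPM in those cells.

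With anti-LIF alone the 8 highest genes were Prl2c3, Prl2c2, Adam19, Dpysl3, Tnnt2, Itgb2, Fgf15 and Men1. The metalloproteinase Adam19 was at 1.64 CPM in control, 7.14 with anti-PD-1, 20.03 with anti-LIF and 5.62 with combo, the troponin Tnnt2 at 6.15, 17.8, 42.9 and 4.45 CPM and the growth factor Fgf15 at 3.84, 5.97, 23.5 and 10.2 CPM. All 3 were highest in anti-LIF and lower in combo, where Tnnt2 was near control. Itgb2, an integrin chain best known in leukocytes, was at 6.39, 11.9, 40.98 and 12.1 CPM. The 8 lowest were Rhox5, Gbp4, Cxcl10, H2-DMb1, Ms4a4d, H2-Eb1, Cd274 and Il6, of which 5 belong to the interferon or antigen presentation genes above. Gbp4, a further guanylate binding protein, was at 61.6 CPM in control, 26.9 with anti-PD-1, 4.46 with anti-LIF and 4.33 with combo, and Ms4a4d, a membrane protein, at 29.2, 18.6, 2.17 and 3.68 CPM.

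In combo against control the 8 highest genes were Prl2c2, C1qb, Uqcrc1, Apoe, Tgfbi, Igfbp6, Lmo7 and Hmga1. Igfbp6, which binds insulin-like growth factor II, was at 13.8 CPM in control, 15.9 with anti-PD-1, 67.1 with anti-LIF and 56.8 with combo, and the chromatin protein Hmga1 at 5.91, 13.7, 17.7 and 20.7 CPM. Uqcrc1 of respiratory complex III was at 8.65, 15.1, 20.5 and 40.6 CPM, beside a leukocyte log2 ratio of 2.11, and Tgfbi, a matrix protein, at 5.36, 15.8, 25.4 and 24.5 CPM, beside 1.94. Lmo7, of cell junctions, was at 6.03, 9.403, 20.6 and 21.7 CPM. The 8 lowest were Batf2, H2-DMb1, H2-Eb1, H2-Aa, Gbp4, Cd274, H2-Ab1 and H2-DMa, and 5 of these are MHC class II genes. Batf2, a transcription factor that interferons induce, was at 29.2 CPM in control, 13.7 with anti-PD-1, 3.89 with anti-LIF and 1.61 with combo (-4.15 [-4.82, -3.60]).

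Combo was also set against each single antibody. Against anti-PD-1, where 2.98% of 10811 genes were 2-fold or more higher and 2.68% lower, 20 of the 22 interferon gamma and MHC class I genes were 2-fold lower, with a median of -1.79. Among its highest genes were Prl2c2, Krt19, Igfbp6, Col6a3, Ifitm1, Uqcrc1 and Pcolce2. Ifitm1, an interferon-induced membrane protein, was at 193 CPM in control, 204 with anti-PD-1, 676 with anti-LIF and 579.6 with combo, and the collagen VI chain Col6a3 at 181, 153, 613 and 476 CPM. Both were thus high in the libraries with anti-LIF, where the interferon gamma list was low. The duct keratin Krt19 was at 16.9, 5.61, 18.3 and 25.2 CPM and, without the cells with host RNA, at 6.99, 3.85, 16.8 and 14.2 CPM. The 8 lowest were H2-DMa, H2-DMb1, Gbp4, Gbp6, Cd274, Igtp, H2-Eb1 and Insc, and Insc (inscuteable), a regulator of spindle orientation, was at 31.8, 55.7, 15.7 and 10.1 CPM. Against anti-LIF, 2.31% of 10750 genes were 2-fold or more higher and 1.78% lower, and the same interferon list had a median of -0.14, beside -0.01 for all genes, with 19 of 22 genes below 0 against 52.03% of all genes and 10 intervals below 0 and 2 above it. None of the 22 was 2-fold lower. There the highest were Rhox5, Ly6c1, Cxcl3, Nrcam, Arhgdib, Ccdc80, Gstm1 and Olfml3. The adhesion protein Nrcam was at 22.8, 25.9, 27.9 and 65.5 CPM, and the glutathione transferase Gstm1 at 38.3, 28.5, 12.02 and 25.9 CPM. The lowest were Tnnt2, Il1rl1, Cct7, Prl2c3, Macc1, Pkp1, Apcdd1 and Kif22. Il1rl1, the receptor of Il33, was at 30.2 CPM in control, 26.04 with anti-PD-1, 57.3 with anti-LIF and 10.2 with combo, and Apcdd1, an inhibitor of Wnt signals, at 21.1, 37.9, 69.4 and 18.8 CPM.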

How the data were processed

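Single-cell RNA was measured in 4 libraries, made with the SeekOne MM 3′ kit per the labels' protocols. The deposited matrices hold whole-number UMI counts per gene and barcode, and the deposited feature and barcode lists hold names only. The submitters' processing notes name Seurat 4.0.3 and mm10. The aligner, counter and cell caller are not given in the sources used here, nor is which of the instruments named in the labels read which library.

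Cells were chosen from the raw counts as stated at the start of the report. No doublet caller was run. The limit on Ptprc removes only doublets in which a Ptprc UMI was captured. Doublets of cancer cells with stromal cells, or with leukocytes without such a UMI, can remain. UMIs were summed over cells per library and given as CPM with exact Poisson 95% intervals. Shares have exact Clopper-Pearson intervals and log2 ratios exact conditional intervals, with 0.5 counts added to each sum and at least 30 UMIs required in 1 of the 2 libraries. All cover counting error only, and with 1 library per group no p-value was computed. Genes named per comparison were the 8 highest and 8 lowest ratios among genes with at least 20 CPM in 1 library, of whose UMIs the 10 top cells held at most 50%, without mitochondrial, ribosomal protein and unnamed genes. Per list, members farthest from 0 were named, with others given as values of the list, and single genes singled out beyond this were chosen after their values were seen. Some items are not reported here. The members and gene lists were chosen with earlier results of these data known. Alternatives changed the thresholds, thinning, scaling, weighting of cells and the cells included. The calculations were tested on simulated data. Tools were Python 3.11.15 with numpy 2.4.6, scipy 1.17.1, pandas 2.3.3, biopython 1.88 and matplotlib 3.10.9.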

Additional observations from a re-analysis of the deposited data

How the results depend on the processing

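With 1 library per group, leaving out a library was not possible, and no interval below covers animals. No paired analysis was possible because each group has 1 library. Of 1226 alternative values, 1001 moved by less than their counting interval or the margin set for counts, 219 moved by more and 6 changed sign beyond their interval from a size over 0.1. Counting every change of sign there were 29, of which 17 stayed within their interval. For a list, the interval was the mean counting interval of its middle genes and leaves out the spread over its members. Settings without cells with host RNA, with 40000 UMIs or fewer or with 10 keratin UMIs or more were added after the data were seen.

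Shares of dividing cells, in the order control, anti-PD-1, anti-LIF, combo, were 13.3%, 18.5%, 25.5% and 24.4% with 10 division UMIs, 7.04%, 11.4%, 16.1% and 11.7% after thinning, 21.7%, 28.9%, 41.1% and 41.0% without host RNA cells, and 26.9%, 34.3%, 43.1% and 40.6% with 10 keratin UMIs. With at most 10% mitochondrial UMIs the share was 28.2%, 35.9% and 40.8% in the first 3. With 5000 UMIs or more it was 29.4% with anti-PD-1, 41.4% with anti-LIF and 36.9% with combo. Without any UMI of 8 other-type genes it was 22.4%, 33.5% and 29.4% in these, and with 40000 UMIs or fewer 24.3% in anti-PD-1 and 30.5% in combo. Control was lowest in each setting that gives it. The median G2/M percentage was 75%, 72.7%, 71.4% and 65.6% with 10 division UMIs, and unthinned 71.9% in anti-PD-1 and 61.7% in combo.

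Counts of genes 2-fold higher and lower for anti-PD-1 were 218 and 125 with 100 UMIs required, 1395 and 675 with 1 UMI in both and 265 and 162 in S-rich cells. For anti-LIF they were 363 and 332, 1654 and 814, and 387 and 300. For combo 305 were higher with 100 UMIs required, 318 without other-type genes and 1581 with 1 UMI in both, where 782 were lower.

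The interferon gamma median for anti-PD-1 was -0.93 centred on the median gene, -0.86 without other-type genes and -0.91 in S-rich cells. For combo it was -2.63 centred, -2.58 without other-type genes, -2.02 in S-rich and -2.80 in G2/M-rich cells, -2.91 without host RNA cells and -2.55 with 40000 UMIs or fewer. The type I list for anti-PD-1 was at -0.69 without other-type genes, -0.77 in S-rich cells, and -0.25 both in G2/M-rich cells and with 40000 UMIs or fewer. For anti-LIF it was at -1.11 as a mean over cells. For combo it was at -0.90 as a mean over cells, -1.38 without other-type genes, -1.29 in G2/M-rich cells, -1.34 without host RNA cells and -1.33 with 40000 UMIs or fewer, and reversed to 0.51 in S-rich cells. STAT3 targets were at -0.26 for anti-PD-1 and -0.63 for anti-LIF in S-rich cells. For combo they were at -0.28 centred, -0.53 without other-type genes, -0.35 without host RNA cells and -0.39 with 40000 UMIs or fewer. Centring reversed cyclins for anti-PD-1 (-0.00031) and condensin (-0.055) and kinetochore genes (-0.031) for combo. Spindle genes in combo, at 0.05, turned to -0.11 both when centred and with 40000 UMIs or fewer. For anti-PD-1, cycle inhibitors turned to -0.049 centred and -0.090 in S-rich cells, and chaperonin genes to -0.062 centred. Epithelial genes in combo, at -0.0032, went to 0.73 in S-rich cells. Within wide intervals, anti-LIF medians turned to 0.20 for epithelial genes without host RNA cells, and in S-rich cells to 0.069 for p53 targets and -0.021 for condensin. Mesenchymal genes reversed without host RNA cells, to -0.021 for anti-LIF and -0.083 for combo. The cause of each shift was not tested. Depth limits genes under 30 UMIs, which have no ratio.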
